A study of Mus musculus with 8 samples.

Results

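The genes of the proteasome, the protease complex that degrades ubiquitin-tagged proteins, were followed in the livers of 8 male C57BL/6 mice. Members were the protein-coding genes named Psma to Psmg followed by a number, without 2 inducible beta subunits that were not analysed here. This gave 48 genes of the 43629 with values, of which 15 encode subunits of the 20S core and 17 encode subunits of the 19S regulatory particle. The others are an inducible and a thymus-type beta subunit, activators, an inhibitor, assembly chaperones, the Psme2-like gene Psme2b, and Psmc3ip, a partner of meiotic recombination that shares the name pattern but is no proteasome subunit.

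All mice were of the C57BL/6 strain and 7 to 8 weeks old. Each received 5 µg of an antagomiR, a chemically modified antisense oligonucleotide against a microRNA, by tail vein. Then 48 h later each received 1 mg/kg CL316243, a β3-adrenergic agonist that makes fat cells release fatty acids, under the skin, and was killed after a further 2 h. The 4 libraries named antagomiR-control replicates 1 to 4 came from mice given the control oligonucleotide, and the 4 named antagomiR-122 replicates 1 to 4 from mice given the inhibitor of the liver microRNA miR-122. Both groups thus had CL316243, each library is 1 mouse, and mice without CL316243 were not analysed here. The question here is how far the proteasome transcripts of the liver depend on miR-122 in stimulated mice.

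The 20S core is a barrel of stacked rings. Its outer alpha rings gate entry, and its inner beta rings carry the proteolytic sites. The 19S regulatory particle caps the barrel: ATPases in its base unfold the substrate, and its lid removes ubiquitin. Transcription factor Nfe2l1 (Nrf1) is known to raise the genes of both particles together when proteasome activity falls short, and in liver the complex serves the turnover of regulatory and damaged proteins.

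Expression was measured as FPKM, fragments scaled for transcript length and library size. Relative depth, estimated from the steps of low FPKM values, was 0.890 to 1.13 in 7 libraries and 2.37 in antagomiR-122 replicate 4, relative to the median library. That library also stood apart on the first principal component, at 38.2 against -13.6 to 0.81, and the members whose unadjusted calls differ without it (Psmd9, Psmb10 and Psmc3) are given with their own values. Hepatocyte genes (Apoa1, Ttr, Cps1, Pck1, Apob and Hnf4a) were abundant in every library, with summed FPKM of 9757 to 12397 in controls and 9526 to 11321 with antagomiR-122. In bulk liver, fewer cells of a type and less RNA per cell cannot be told apart.

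Of the 48 members, 45 reached a mean of 1 FPKM and were tested. The 3 under this filter were the testis-type alpha subunit Psma8, at 0.226 to 0.698 FPKM, the thymus-type beta subunit Psmb11, at 0 to 0.0187, and Psme2b, at 0 to 0.764. Reads could be shared between Psme2b and Psme2, so the value of Psme2b is uncertain. Values are also uncertain where exons overlap another gene, as for Psmb7 with Nek6 (253 bases), Psmg3 with Gm26938 (237 bases), Psma4 with AY074887 (114 bases), Psmc3ip with Mlx (385 bases) and Psme1 with Emc9 (13 bases). No tested member passed an adjusted p of 0.05 (limma on log2(FPKM + 1), Benjamini-Hochberg adjusted over 11131 genes, smallest adjusted p among members 0.582). Across all tested genes 0.0% passed as well, with a smallest adjusted p of 0.251. At an unadjusted p under 0.05 there was 1 member, the chaperone Psmd9, which is 2.22% of those tested against 7.44% of all 11131 tested genes (828 genes, 3.76% higher and 3.67% lower). In the authors' deposited table Cuffdiff tested 47 of these genes and called 0, against 188 of all 13259 genes it tested, and Psmd9 again had the smallest p (0.0265, q = 0.522).

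**Figure D1:**
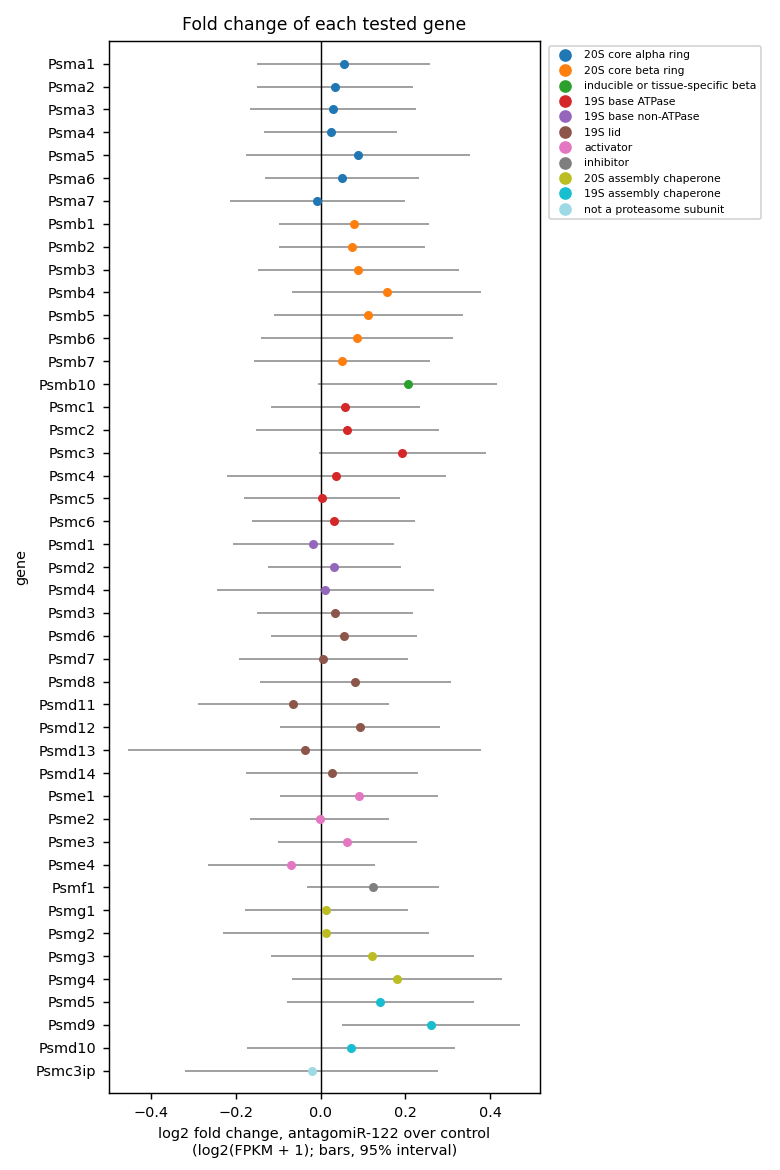
Log2 fold change of each of the 45 tested genes (x axis, antagomiR-122 over control on the log2(FPKM + 1) scale), with its 95% interval as a bar and genes coloured by role. The points lie between -0.07 and 0.26, and the interval of Psmd9 is the one that does not reach 0.

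The estimated differences were small. The log2 fold changes ran from -0.07 (Psme4) to 0.26 (Psmd9), and all 45 of the 95% intervals lay between -0.45 and 0.47. In 30 of the 45 the interval lay within 0.3 log2 units on either side of 0. Of the 45 members 38 had a higher mean and 7 a lower mean with antagomiR-122, a share of 84.4% against 53.0% of all tested genes, and 66.6% of the 2176 tested genes whose mean reached 30 FPKM. The median log2 fold change was 0.05 for the members and 0.01 for all tested genes. Much of this tilt came with 1 mouse: without antagomiR-122 replicate 2, 23 of the 45 were higher and 22 lower, and the median was 0.0074. This share of 51.1% stood against 51.2% of all tested genes and 58.0% of those reaching 30 FPKM. The assembly chaperones of both particles, Psmb10, Psmf1 and 6 of the 7 constitutive beta subunits were still higher in that fit. Without antagomiR-122 replicate 4 the count was 41 (91.1%, against 51.8% of all tested genes and 68.7% of those reaching 30 FPKM). Quantile normalization gave 33 higher and 12 lower, with a median of 0.03, and turned the sign of Psma3, Psma4, Psmc5, Psmd4 and Psmd7. The share higher was then 73.3%, against 52.2% of all tested genes and 55.1% of those reaching 30 FPKM.

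Alpha-ring genes of the core differed little between the groups. Of its 8 genes 7 were tested, 6 with a higher and 1 with a lower mean, and log2 fold changes from -0.01 to 0.09. Without antagomiR-122 replicate 2 just 1 of the 7, Psma6, was higher. Psma3, its most abundant subunit transcript, was at 138, 142, 153 and 139.7 FPKM in controls and 130.2, 166, 152 and 139 FPKM with antagomiR-122. The groups overlapped, since the antagomiR-122 mice held both the highest and the lowest value. The means were 143 ± 6.56 and 147 ± 15.7 FPKM (SD, n = 4 each). The log2 fold change was 0.03 ± 0.09 (SE), and -0.00052 with quantile normalization. Psma5, which had the smallest p of the alpha ring, was at 40.1, 41.5, 44.8 and 43.0 FPKM in controls and 38.6, 56.0, 48.4 and 39.2 FPKM with antagomiR-122. Its values split the antagomiR-122 mice, with replicates 2 and 3 above every control and replicates 1 and 4 below every control. Its log2 fold change was 0.09 ± 0.12 (SE; limma adjusted p = 0.898), and -0.02 without replicate 2.

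In the beta ring all 7 constitutive subunits had a higher mean with antagomiR-122, from 0.05 to 0.16 log2 units, and none passed. Without replicate 2, 6 of the 7 were higher, with a median of 0.01 against 0.09. Psmb4, a structural beta subunit with the highest mean FPKM of the core, was at 134, 146, 146 and 136 FPKM in controls and 138, 177, 175 and 139 FPKM with antagomiR-122. Replicates 2 and 3 of the treated group stood above all controls, and replicates 1 and 4 lay among them. Its means were 140.4 ± 6.26 and 157 ± 21.4 FPKM, a log2 fold change of 0.16 ± 0.10 (SE; limma adjusted p = 0.778). For the catalytic subunits the differences were similar in size. Psmb5, which carries the chymotrypsin-like site, had a log2 fold change of 0.11 ± 0.10, with means of 77.1 ± 2.09 and 84.1 ± 11.9 FPKM. Psmb6, with the caspase-like site, had 0.09 ± 0.10, and Psmb7, with the trypsin-like site, 0.05 ± 0.09. For all 3 catalytic genes the groups overlapped. Without replicate 2 the values were 0.05 for Psmb5, 0.0074 for Psmb6 and -0.01 for Psmb7.

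Psmb10, the inducible subunit that replaces Psmb7 in immunoproteasomes, was one of 2 members whose groups did not overlap. This is 4.44% of those tested, against 4.52% of all tested genes, and both lay higher, against 2.38% of all tested genes in that direction and 2.14% in the other. Both stayed apart with median ratio scaling, which divides each library by its own factor, and with quantile normalization. The other runs left out a mouse or changed the pseudocount, filter, variance model or block, and could not make groups that are apart overlap. Psmb10 (chromosome 8, 105935728 to 105938392, minus strand of GRCm38) was at 17.03, 16.1, 16.2 and 15.7 FPKM in controls and 17.9, 17.98, 22.8 and 17.4 FPKM with antagomiR-122. The lowest treated mouse was just above the highest control, and replicate 3 stood well above the rest. The means were 16.3 ± 0.555 and 19.002 ± 2.54 FPKM (SD, n = 4 each). Its log2 fold change was 0.21 ± 0.09 (SE), with a 95% interval of -0.0055 to 0.42 (limma adjusted p = 0.671). A two-sided exact permutation test gave p = 0.0286, the lowest value that 4 against 4 mice can reach. Groups that do not overlap always give this value, so it adds nothing to their being apart, and it is not adjusted. Without replicate 3 the log2 fold change was 0.12, and without replicate 4 it was 0.24 (limma unadjusted p = 0.0405, adjusted p = 0.587).

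The 6 ATPases of the 19S base all had a higher mean, with log2 fold changes from 0.0036 (Psmc5) to 0.19 (Psmc3). Without antagomiR-122 replicate 2 only Psmc3, at 0.18, stayed above 0. Psmc3 (chromosome 2, 91054009 to 91066369, plus strand) was at 52.2, 48.4, 50.2 and 55.1 FPKM in controls and 53.5, 60.9, 67.3 and 54.9 FPKM with antagomiR-122. Replicates 2 and 3 were again above every control, while replicates 1 and 4 fell among them. Its log2 fold change was 0.19 ± 0.09 (SE; limma unadjusted p = 0.0544, adjusted p = 0.671), and 0.23 without replicate 4 (limma unadjusted p = 0.0423). It was 0.13 without replicate 3, and 97 bases of its exons overlap Slc39a13 on the other strand. Psmc6, the ATPase with the highest mean, was at 58.3, 57.3, 60.1 and 57.9 FPKM in controls and 53.4, 69.6, 59.7 and 57.1 FPKM with antagomiR-122. The controls lay within a narrow band, and treated replicates 1 and 2 lay on opposite sides of it.

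The other base and lid subunits had medians of 0.01 and 0.03 log2 units. Among the non-ATPase base subunits Psmd2, a scaffold of the base, was at 57.4, 59.8, 60.7 and 60.8 FPKM in controls and 58.8, 67.1, 59.9 and 58.8 FPKM with antagomiR-122. Only replicate 2 left the range of the controls, and the log2 fold change was 0.03 ± 0.07 (SE). Psmd4, an intrinsic ubiquitin receptor, had 0.01 ± 0.11, and Psmd1, the other scaffold, -0.02 ± 0.08. Of the 8 lid subunits 6 had a higher and 2 a lower mean, and without replicate 2 this was 3 higher and 5 lower. Psmd12 had the smallest p of the lid, with 39.8, 42.6, 40.2 and 42.3 FPKM in controls, 41.0, 49.7, 46.3 and 39.9 FPKM with antagomiR-122 and a log2 fold change of 0.09 ± 0.08 (SE). Psmd14, the lid's deubiquitinase, had 0.03 ± 0.09.

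Some lid genes departed from the others in single mice. Psmd11, the lid gene with the highest mean, was at 67.1, 66.2, 64.3 and 67.4 FPKM in controls and 63.9, 73.1, 51.7 and 66.6 FPKM with antagomiR-122. Replicate 3 was the lowest of all 8, and without it the log2 fold change turned from -0.06 to 0.03. Psmd13, another lid subunit, was at 51.8, 63.8, 55.7 and 92.4 FPKM in controls and 49.7, 74.2, 70.5 and 59.1 FPKM with antagomiR-122. It varied more between controls than any other tested member, with an SD of 0.37 log2 units. Its exons overlap Sirt3 on the other strand by 152 bases. Sirt3 was at 42.1 FPKM in control replicate 4, where Psmd13 was highest, and at 38.2 to 46.7 in the other controls.

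**Figure D2:**
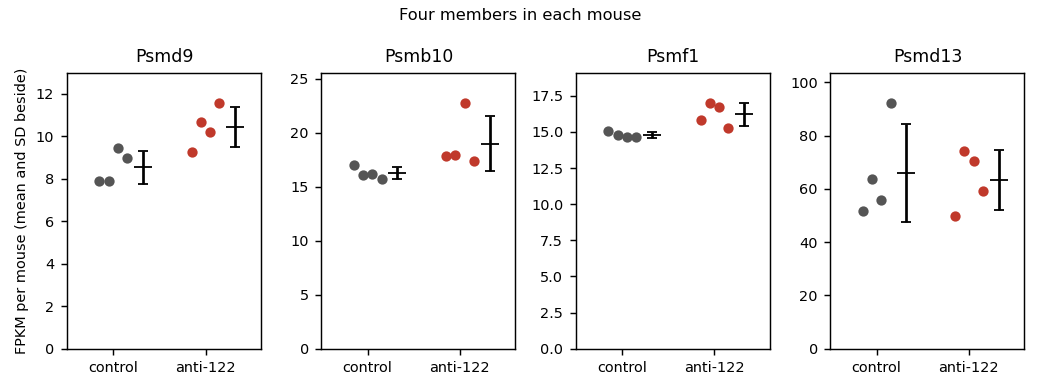
FPKM (y axis, from 0) of Psmd9, Psmb10, Psmf1 and Psmd13 in each of the 4 control and 4 antagomiR-122 mice, with the group mean and SD beside the points. The groups are apart for Psmb10 and Psmf1 and overlap for Psmd9 and Psmd13, where a single control reached 92.4.

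Activators of the core did not share 1 direction, with 2 of 4 tested members higher and 2 lower. Psme2, a subunit of the interferon-inducible activator PA28 and the most abundant of all members, was at 245, 253, 238 and 281 FPKM in controls and 259.9, 247, 257 and 249.6 FPKM with antagomiR-122. All treated values fell inside the range of the controls, and the log2 fold change was -0.0024 with a 95% interval of -0.17 to 0.16. Psme1, its partner subunit and its close neighbour on chromosome 14 (55578123 to 55581529, with Psme2 at 55587441 to 55591113), was at 73.3, 72.3, 70.7 and 67.1 FPKM in controls and 71.8, 75.9, 86.7 and 68.7 FPKM with antagomiR-122. Its log2 fold change was 0.09 ± 0.08 (SE; limma adjusted p = 0.842), and 0.02 without replicate 3. Psme3, the nuclear activator, had 0.06 ± 0.07 and Psme4, a large nuclear activator (PA200), -0.07 ± 0.09.

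The inhibitor gene Psmf1, which encodes PI31, was the second member with groups apart. Psmf1 (chromosome 2, 151715812 to 151744186, minus strand) was at 15.1, 14.8, 14.6 and 14.6 FPKM in controls and 15.8, 17.02, 16.7 and 15.2 FPKM with antagomiR-122. The controls were within 1 FPKM of each other, and every treated mouse lay above them, replicate 4 by little. The means were 14.8 ± 0.209 and 16.2 ± 0.813 FPKM (SD, n = 4 each). Its log2 fold change was 0.12 ± 0.07 (SE; limma adjusted p = 0.742). The exact permutation p was again 0.0286, which follows from the groups being apart. Psmc3ip, which is no subunit, was at 2.51, 2.82, 3.01 and 2.57 FPKM in controls and 3.21, 3.07, 2.78 and 1.80 FPKM with antagomiR-122, so its groups overlapped.

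All 7 assembly chaperones had a higher mean with antagomiR-122. The 4 that build the core, Psmg1 to Psmg4, had log2 fold changes from 0.01 to 0.18. Without antagomiR-122 replicate 2 all 4 stayed higher, with a median of 0.09 against 0.07. Without antagomiR-122 replicate 3, 2 of these were higher and 2 lower, with a median of -0.01. Without control replicate 1 the counts were also 2 and 2. In each of these fits the 3 that assemble the 19S base stayed higher. Psmg4 was at 10.4, 8.45, 7.38 and 8.88 FPKM in controls and 8.82, 10.8, 10.9 and 9.65 FPKM with antagomiR-122, with overlapping groups (log2 fold change 0.18 ± 0.11, SE; limma adjusted p = 0.764). Psmg1 was at 12.8, 14.001, 13.04 and 14.3 FPKM in controls and 12.9, 13.4, 15.6 and 12.8 FPKM with antagomiR-122. Those that assemble the 19S base are Psmd5, Psmd9 and Psmd10. Psmd5, the most abundant, was at 19.3, 20.2, 18.1 and 18.6 FPKM in controls and 19.1, 25.6, 19.7 and 20.6 FPKM with antagomiR-122, and its log2 fold change of 0.14 ± 0.10 (SE) was 0.05 without replicate 2.

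Psmd9 had the largest log2 fold change of the members. Psmd9 (chromosome 5, 123228190 to 123250131, plus strand) was at 7.88, 7.90, 9.43 and 8.96 FPKM in controls and 9.27, 10.7, 10.2 and 11.6 FPKM with antagomiR-122. Replicate 1 of the treated group fell between the controls and the other treated mice all lay above them. The means were 8.54 ± 0.777 and 10.4 ± 0.96 FPKM (SD, n = 4 each), a ratio of 1.22. Its log2 fold change was 0.26 ± 0.09 (SE), with a 95% interval of 0.05 to 0.47 (limma unadjusted p = 0.0197, adjusted p = 0.582). The unadjusted p was under 0.05 in neither the fit without antagomiR-122 replicate 4 nor those without control replicate 1 or 2, and over mice left out the log2 fold change ranged from 0.21 to 0.31.

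Its promoter is shown because Psmd9 was the member with the smallest p. The window covers 250 bases before to 50 after the transcript start, at chr5:123227940-123228239 on the plus strand (RefSeq, GRCm38.p6). Capitals mark its match to TGACNNNGC, the core of the antioxidant response element to which Nfe2l1 is known to bind.
Psmd9: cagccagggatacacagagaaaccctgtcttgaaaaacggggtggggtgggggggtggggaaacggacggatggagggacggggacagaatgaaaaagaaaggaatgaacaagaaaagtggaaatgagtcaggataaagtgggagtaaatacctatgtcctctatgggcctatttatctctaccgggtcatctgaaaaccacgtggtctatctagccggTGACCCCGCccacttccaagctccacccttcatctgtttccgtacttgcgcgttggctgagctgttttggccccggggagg

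Promoters in the RefSeq table were matched for 40 of the 48 members. TGACNNNGC was found, on either strand, in 6 of the 40 (15%), against 17.2% of the 8242 tested genes with a promoter, and CCAAT, also on either strand, in 14 (35.0%) against 42.7%. Both shares of the members were thus no higher than among tested genes. The matches in the 2 catalytic subunits are shown beside those in the ATPase Psmc6, the lid gene Psmd12 and the activator Psme4, so that their place can be compared. Capitals mark the motif, which lies on the minus strand of the gene in the last 3.
Psmb5: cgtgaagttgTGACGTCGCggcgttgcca
Psmb6: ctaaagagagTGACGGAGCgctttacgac
Psmc6: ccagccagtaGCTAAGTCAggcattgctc
Psmd12: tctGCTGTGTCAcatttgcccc
Psme4: cgctgcggctGCAGCGTCAccagaagagc

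In Psmb5 (chr14:54618024-54618052, minus strand) the match begins 47 bases before the start site, and in Psmb6 (chr11:70525338-70525366, plus strand) 9 bases before it. In Psmc6 (chr14:45329587-45329615, plus strand) and Psmd12 (chr11:107479278-107479299, plus strand) it begins 227 and 247 bases before. In Psme4 (chr11:30771758-30771786, plus strand) it begins 7 bases before and runs past the start site. A match describes the letters and is not a binding site. Of the 6 members with a match, only Psme4 had a log2 fold change below 0 (-0.07). The others were Psmb5 at 0.11, Psmb6 at 0.09, Psmc6 at 0.03, Psmd12 at 0.09 and Psmd9 at 0.26. Among all tested members 84.4% were higher, and a link to the motif was not tested.

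Levels of core and regulatory transcripts moved together from mouse to mouse. The summed FPKM of the 14 tested core subunits was 1215, 1247, 1287 and 1284 in controls and 1177, 1494, 1387 and 1240.1 with antagomiR-122. The sum of the 17 regulatory subunits was 802, 814, 828 and 886 in controls and 779.8, 973, 872 and 799.8 with antagomiR-122. AntagomiR-122 replicate 2 was highest and replicate 1 lowest of the 8 for both particles. Expressed as the mean of log2(FPKM + 1) over subunits, the core level was 6.44 ± 0.04 in controls and 6.50 ± 0.15 with antagomiR-122, and the regulatory level 5.61 ± 0.05 and 5.65 ± 0.14 (SD, n = 4 each). The groups overlapped for both particles. Without replicate 2 the core difference went from 0.07 to 0.0045 and the regulatory difference from 0.04 to -0.03. Without replicate 1 they were 0.12 and 0.08, and with quantile normalization 0.03 and 0.0096.

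**Figure D3:**
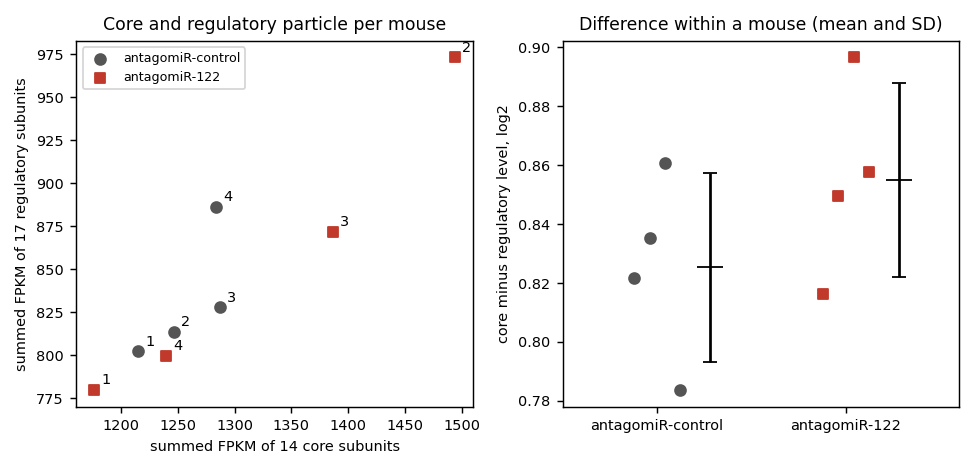
Left, summed FPKM of 14 core subunits (x axis) against 17 regulatory subunits (y axis), 1 point per mouse with its replicate number; right, core level minus regulatory level in each mouse (log2), with mean and SD. Replicate 2 of antagomiR-122 lies at the top right of the left plot, and the groups overlap on the right.

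The balance between the particles differed little between the groups. The core level minus the regulatory level was 0.82, 0.84, 0.86 and 0.78 log2 units in controls and 0.82, 0.85, 0.897 and 0.86 with antagomiR-122. The groups overlapped, with means of 0.83 ± 0.03 and 0.85 ± 0.03 (SD, n = 4 each). The difference between the means was 0.030 with a pooled SD of 0.033. It stayed above 0 over mice left out, from 0.016 to 0.043, and was not tested. The lowest value, in control replicate 4, came with the high Psmd13 of that mouse: without Psmd13 it was 0.84 and the group means were 0.85 ± 0.02 and 0.88 ± 0.04. The core transcripts stood above the regulatory ones in FPKM, with a ratio of summed values of 1.45 to 1.59 over the 8 mice and 12 of 14 core genes above the most abundant regulatory gene.

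Among the core genes Psma5 was the lowest transcript in 8 of 8 mice, and Psmb4 the highest in 5 of 8, with a mean FPKM 3.39 times that of Psma5. In the regulatory particle Psmd7, a lid subunit, was lowest in 8 of 8 mice and Psmd11 highest in 5 of 8, a ratio of 1.86. In single mice the ratio of the highest to the lowest member ran from 3.15 to 3.62 in the core and from 1.83 to 2.498 in the regulatory particle.

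The spread between mice was larger in the antagomiR-122 group for most members. In controls the members kept close together, with a median SD of 0.06 log2 units. It was 0.13 over all tested genes and 0.11 over those whose mean reached 30 FPKM. With antagomiR-122 the median SD of the members was 0.152, near the 0.165 over all tested genes and the 0.155 over those reaching 30 FPKM. The SD was larger in the antagomiR-122 group for 41 of 45 members (91.1%), against 63.2% of all tested genes and 70.3% of those whose mean reached 30 FPKM. It was larger for 14 of 14 core and 16 of 17 regulatory members. Without replicate 2 the count was 32 of 45 (71.1%), against 54.0% of all tested genes and 56.7% of those reaching 30 FPKM. With quantile normalization the median SD of the members in the antagomiR-122 group was 0.12. The SD was then larger in that group for 40 of 45 (88.9%), against 60.8% of all tested genes and 66.2% of those reaching 30 FPKM. Core and regulatory genes moved together from mouse to mouse, so these counts over members are not independent observations. The SD of 4 mice is itself uncertain, and no test of the spread was made.

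**Figure D4:**
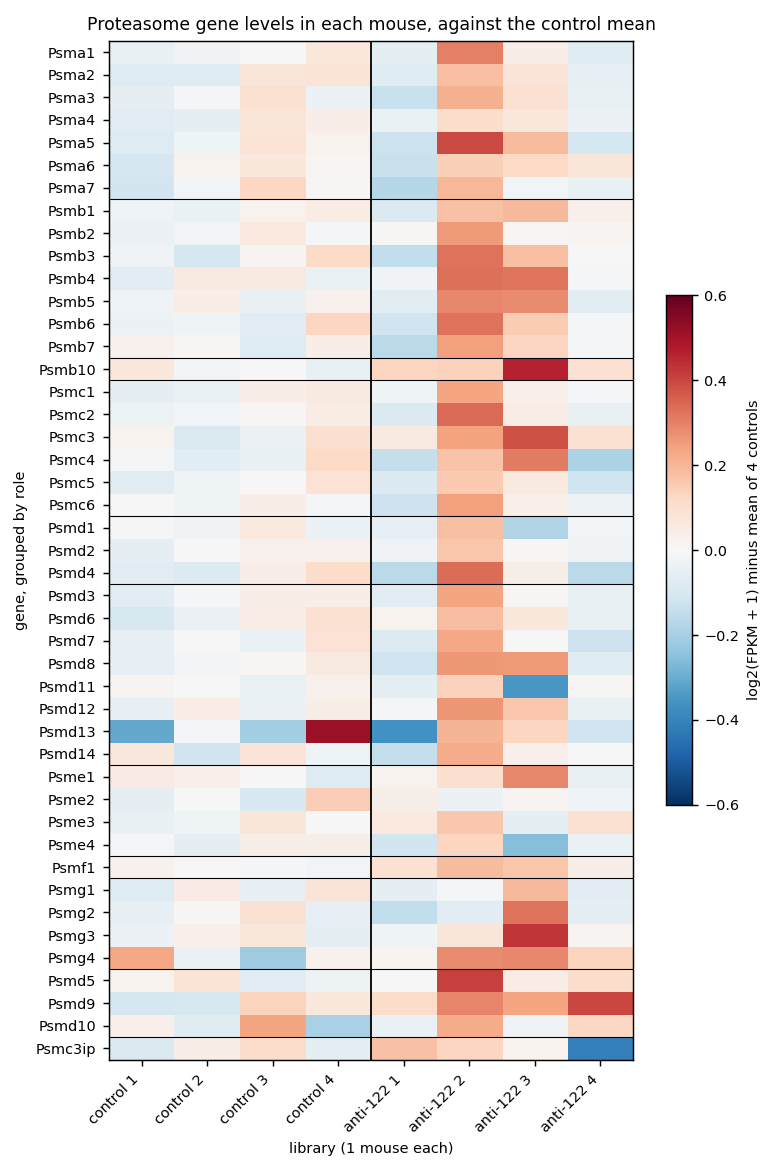
Level of each tested gene (rows, grouped by role) in each mouse (columns), as log2(FPKM + 1) minus the mean of the 4 controls; red is higher and blue lower. The column of antagomiR-122 replicate 2 is red in nearly all rows, that of replicate 1 mostly blue, and replicate 3 is mixed.

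The antagomiR-122 mice left the range of the controls on opposite sides. Replicate 2 was above all 4 controls for 40 of 45 members (88.9%), against 29.5% of all tested genes and 48.8% of those reaching 30 FPKM, including 14 of 14 core and 16 of 17 regulatory genes. Replicate 1 was below all 4 controls for 24 members (53.3%), against 19.2% of all tested genes. Replicate 3 was above for 21 (46.7%, against 27.7% of all tested genes) and below for 4 (8.89% against 27.9%). Replicate 4 was above for 6 (13.3% against 24.2%) and below for 12 (26.7% against 20.1%). The same picture came from ranks: replicate 2 held the highest value of the 8 mice for 31 of 45 members (68.9%), against 19.5% of all tested genes and 33.2% of those reaching 30 FPKM, and replicate 1 the lowest for 17 (37.8%), against 9.08%. The median of all tested genes in replicate 2 was 0.02 log2 units above the mean of the other 7 mice, that of genes reaching 30 FPKM 0.11 and that of the members 0.21. The summed FPKM over all genes was also highest in replicate 2, at 701285 against 541058 to 688749 in the other mice. With quantile normalization, which gives all mice the same distribution, replicate 2 was above all controls for 33 of 45 members (73.3%), against 26.2% of all tested genes and 28.5% of those reaching 30 FPKM. It was then highest for 25 of 45, and the median of the members was 0.15.

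**Figure D5:**
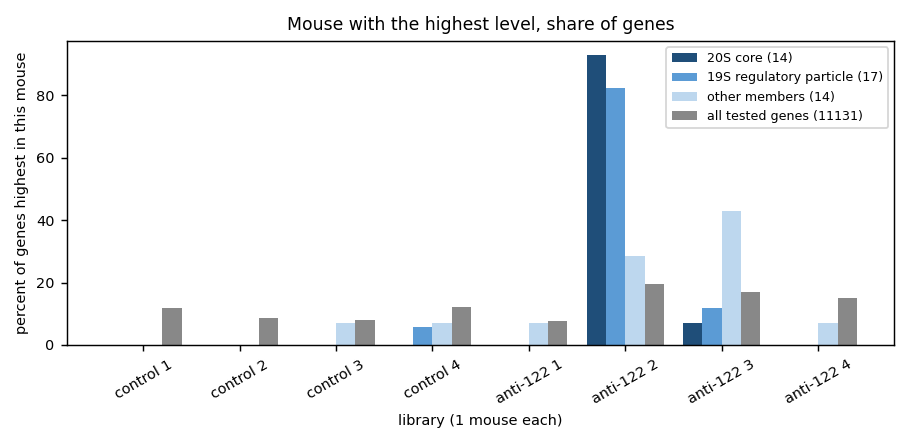
Percent of genes (y axis) that are highest in each of the 8 mice (x axis), for 14 core, 17 regulatory and 14 other members and for all 11131 tested genes. In antagomiR-122 replicate 2 the bars reach 92.9% for the core and 82.4% for the regulatory particle, against 19.5% for all tested genes.

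Replicate 3 differed by gene, and the values moved with transcript length. Members with a longest coding transcript under 1500 bases had a median of 0.11 log2 units above the mean of the 8 mice in replicate 3, and longer members 0.02. Over all tested genes with a length these medians were 0.14 and -0.03 in that library. In replicate 2 they were 0.16 and 0.20 for the members and 0.08 and 0.0083 for all tested genes. The part of transcript length in these results was not tested. Some markers of other liver cells had differing means, although none passed the adjusted threshold (limma). Both tested neutrophil genes had lower means, with log2 fold changes of -0.70 for S100a8 and -0.66 for S100a9 (limma unadjusted p = 0.0313, adjusted p = 0.618). All 4 stellate genes had lower means too, and the groups were apart for Lrat (-0.37, limma unadjusted p = 0.00821, adjusted p = 0.486). The others lay within their errors, with Reln at -0.05 ± 0.12, Dcn at -0.08 ± 0.12 and Col1a1 at -0.38 ± 0.76 (SE). The endothelial genes differed among themselves. Lyve1 was at -0.37 (limma unadjusted p = 0.019, adjusted p = 0.577), Kdr at -0.15, Stab2 at -0.01 and Clec4g at 0.08. By sums over each list, replicate 2 had the lowest summed FPKM of the neutrophil list (5.69, against 8.01 to 23.4 in controls) and of the stellate list (79.7, against 89.5 to 107.7). Of the stellate genes Dcn (59.2), Lrat (3.01) and Col1a1 (0.885) were lowest there, while Reln (16.6) was the highest of its group. Kupffer cell genes summed to 202 there, against 192 to 262 in controls, and endothelial genes to 77.3, against 79.5 to 84.1. Lymphocyte markers summed to at most 2.65 in any mouse, and cholangiocyte markers to at most 4.04. Adipocyte markers summed to 0.178 to 0.239 in controls and 0.238 to 3.74 with antagomiR-122, mostly from Cfd. Adipoq and Plin1 were listed at 0 in replicate 2 and at 0.451 and 0.0597 in replicate 1. Red blood cell genes summed to 225 in replicate 2 and 349.7 in replicate 3, against 167 to 249 in controls. Their part in the result was not tested.

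Other genes of the pathway gave 0 calls over all tested genes (limma). Of 40 listed genes 39 were tested, 25 with a higher and 14 with a lower mean, and 1, Irf1, had an unadjusted p under 0.05 (2.56% of them, against 7.44% of all tested genes). Over the 8 fits that leave out a mouse, that p stayed under 0.05 in 3 and was 0.0601 to 0.0871 in the other 5. Among direct partners of the proteasome 10 of 13 were higher. Adrm1, a ubiquitin receptor of the 19S base, was at 28.0, 27.8, 28.3 and 29.1 FPKM in controls and 26.5, 42.0, 30.1 and 25.5 FPKM with antagomiR-122. Replicate 2 stood far above the other 7, and without it the log2 fold change went from 0.10 to -0.05. Pomp, the maturation factor of the core, had 0.08 ± 0.07, and Fbxo7, an F-box protein that binds the inhibitor PI31, 0.10 ± 0.10 (SE).

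The Nfe2l1 arm had 4 genes higher and 6 lower. Nfe2l1 itself, named here for its role, was at 73.3, 68.6, 64.9 and 79.4 FPKM in controls and 78.5, 75.4, 74.6 and 69.8 FPKM with antagomiR-122. Its value in antagomiR-122 replicate 2 lay within the range of the controls. This is an RNA level, and the activity of the Nfe2l1 protein was not tested. Ddi2, the protease that activates Nfe2l1, had a log2 fold change of -0.16 ± 0.09, and Nploc4, a cofactor of the unfoldase VCP, -0.09 ± 0.11 (SE). Of 12 tested ubiquitin and shuttle genes 8 were higher and 4 lower, with Ubb at 0.11 ± 0.12 and Ubqln1 at -0.13 ± 0.08. Without replicate 2 Ubb was at 0.0083, and without replicate 3 Ubqln1 was at -0.08.

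Of 4 regulators of the interferon-inducible members 3 had a higher and 1 a lower mean, and none passed. Irf1, a transcription factor of the interferon response, was at 11.7, 9.33, 8.44 and 8.50 FPKM in controls and 12.0, 12.3, 10.6 and 11.4 FPKM with antagomiR-122. The groups overlapped through control replicate 1 (log2 fold change 0.27 ± 0.11, SE; limma adjusted p = 0.618). Nlrc5, an activator of antigen presentation genes, had -0.14 ± 0.14. In antagomiR-122 replicate 3, where Psmb10 was highest, Irf1 had its lowest value of that group. This is 1 mouse, and a link between the RNA levels of these genes was not tested. Of the listed pathway genes 19 of 39 (48.7%) were above all 4 controls in replicate 2, beside 88.9% of the members and 29.5% of all tested genes.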

How the data were processed

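Liver RNA of 8 mice was sequenced, 1 library per mouse. Per the submitters' processing notes, the build is GRCm38, and the tools, in no stated order, are Cufflinks (2.2.1), Cuffdiff, TopHat2 (2.0.13), bcl2fastq (2.15.0.4) and cutadapt (1.7.1). The annotation release, the strand setting and any scaling of libraries were not given in the sources used here. Without a known strand setting, reads of overlapping genes cannot be told apart. The authors deposited FPKM per mouse and per group, a log2 fold change and a test statistic (both treated as a score here, the first because it has no fixed range where a group is at 0), and a p-value and q-value per gene. Groups and replicate numbers came from the titles, and the number of per-sample columns with no matching label was 0.

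Genes reaching a mean of 1 FPKM entered a two-sided limma fit (version 3.58.1, R version 4.3.3, with trended and robust variance) of log2(FPKM + 1), which understates changes of low genes, with Benjamini-Hochberg adjustment over 11131 genes and a threshold of 0.05. Members' roles, lists and tests were chosen with earlier results of these data known. Members named in full are, in each role, the one with the smallest p and the one with the highest mean, those at an unadjusted p under 0.05 and those with groups apart. In the pathway lists the rule takes the 3 smallest p per list, of which some genes are not reported here. Other genes with values of their own (such as Psmd13, Nfe2l1, Sirt3 and the catalytic subunits) were chosen after their values were seen. Single values were compared by exact permutation. Transcript lengths and exon overlaps came from GENCODE M21 on GRCm38. The scripts were tested on simulated data.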

Additional observations from a re-analysis of the deposited data

Results flagged for a closer look

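Values were checked for 1 mouse far from the other 3 of its group, by Dixon's test at its 95% critical value. Of 96 groups of values, 4 were picked out, or 4.17%, and chance picks out about 1 in 20. Psmd2 (67.1 FPKM) and Psmb2, a structural beta subunit (77.8 FPKM), stood high in antagomiR-122 replicate 2. Psmg2 (13.3 FPKM), a chaperone of the core, and Psmb10 (22.8 FPKM) stood high in antagomiR-122 replicate 3. All 4 were in the antagomiR-122 group.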

How the results depend on the processing

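Another pseudocount, filter, scaling, variance model, a replicate block or leaving out each mouse brought 0 members and 0 of all tested genes past the adjusted threshold. With the replicate block 38 members were higher and 1 had an unadjusted p under 0.05, and it changed no call. The titles do not say whether same-numbered mice were paired. Their deviations had correlations of 0.13, -0.24, -0.06 and -0.18 over tested genes, which cannot decide it. Under quantile normalization 2 members (Psmc3 and Psmd9) had an unadjusted p under 0.05, and Psma3 had a log2 fold change of -0.00052. Over mice left out, members at an unadjusted p under 0.05 ranged from 0 to 2, members with groups apart from 2 to 4, members higher from 23 to 41 (lowest without antagomiR-122 replicate 2) and members with the larger SD in the antagomiR-122 group from 32 to 42. The last 2 counts, and those of replicate 2 under other scalings (members highest 25 to 32, above all controls 33 to 40), were chosen after seeing the data. Some log2 fold changes crossed 0 over mice left out: Adrm1 from -0.051 to 0.18, Psma3 from -0.030 to 0.085, Psma5 from -0.016 to 0.16, Psmc6 from -0.042 to 0.083, Psmd2 from -0.012 to 0.051, Psme2 from -0.033 to 0.046, Psmd11 from -0.13 to 0.032, Psmg1 from -0.047 to 0.042 and Psmc3ip from -0.086 to 0.11. The cause was not tested. The other 20 of the 29 genes chosen by the naming rule kept their sign in every fit that held them. Members outside that rule crossed 0 over mice left out too, such as Psmd13 from -0.139 to 0.135, Psmd4 from -0.097 to 0.069 and Psmb7 from -0.014 to 0.12. The number of fragments behind each FPKM is unknown, so no counting interval can be given.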
